A study of Mus musculus musculus x Mus musculus castaneus with 12 samples.

Results

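The genes described here are 10 regulators and markers of the primitive endoderm, *Gata4*, *Gata6*, *Sox17*, *Sox7*, *Foxa2*, *Hnf4a*, *Pdgfra*, *Dab2*, *Foxq1* and *Cubn*, taken by symbol from the 24346 genes of the RNA-seq tables. All 10 were found. They were measured in 12 libraries of F1 hybrid mouse ES cells, in which the lysine demethylase gene *Kdm6a* was intact (wt) or deleted (KO). BC cells have a C57BL/6 (BL6) mother and a *Mus castaneus* (*cast*) father, and CB cells come from the reciprocal cross. From the BC cross there were 2 libraries of a male wt line, 2 of a female wt line and 1 of each male KO clone (ΔE1, ΔE3 and ΔP4). From the CB cross there were 2 libraries of a male wt line and 1 of each of its KO clones, which are named ΔE2.5, ΔE2.7 and, for the promoter deletion, ΔP2.1. ΔE clones are exonic KO clones that lack a stretch from exon 2 to exon 4 of *Kdm6a*, and ΔP clones lack exons 1 and 2 with the promoter. All cells were grown with serum and LIF on fibroblast feeders that were largely removed before use. ΔE1 and ΔE3 share an off-target deletion of 3 X-linked genes and are taken by the study to have a common origin. The wt CB line carries an actin-GFP transgene. Each cross and each sex is represented by a single wt line, so that cross, sex and line cannot be told apart.

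Primitive endoderm is the epithelium that forms beside the epiblast in the late blastocyst and gives rise to parietal and visceral endoderm of the yolk sac. In the inner cell mass, FGF4 from epiblast precursors acts through FGF receptors and the MAPK cascade to favor GATA6 over NANOG, and GATA6 is followed by SOX17, GATA4 and SOX7. PDGFRA is the receptor tyrosine kinase by which the precursors are recognized, FOXA2 and HNF4A are transcription factors of visceral endoderm, and DAB2 and cubilin serve in endocytosis and in the sorting of the epithelium. ES cells resemble the epiblast, and cultures with serum hold a few cells that express these genes. In bulk RNA, fewer cells of a kind and less RNA per cell cannot be told apart.

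*Sox7* and *Sox17* encode SOX proteins of the same subgroup, and *Gata4* and *Gata6* encode a pair of related zinc finger proteins, so that the counting of short reads had to be considered. The longest stretch of identical bases in the annotated transcripts of *Sox7* and *Sox17* is 22 bases and lies in the coding sequence of both. It is shown because a 75-base read that covers it also holds bases by which the transcripts differ. The windows below, read from the GENCODE transcripts of GRCm38, have the identical run in capitals and 4 bases on either side in lower case. The *Sox7* window lies in an exon at chr14:63947838-63947867 on the plus strand and that of *Sox17* in an exon at chr1:4492556-4492585 on the minus strand.
Sox7: gattACCCCAACTACAAGTACCGGCCccgc
Sox17: gaccACCCCAACTACAAGTACCGGCCgcgg
The longest run shared by *Gata4* and *Gata6* was 18 bases. Both runs are shorter than a read. All 10 members are protein-coding genes. In GRCm38 coordinates *Foxa2* lies on chromosome 2 from 148042877 to 148046969 and *Dab2* on chromosome 15 from 6299788 to 6440712. *Hnf4a* lies on chromosome 2 from 163506808 to 163572910, *Pdgfra* on chromosome 5 from 75152292 to 75198215 and *Foxq1* on chromosome 13 from 31556134 to 31560976. *Cubn* lies on chromosome 2 from 13276338 to 13491813 and *Sox17* on chromosome 1 from 4490931 to 4497354.

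Depth was 68457338 to 89070402 diploid fragments per BC library and 49975599 to 53407103 per CB library. At this depth 1 fragment on a gene of 2000 bases corresponds to between 0.0146 and 0.0270 TPM. *Kdm6a*, the edited gene, was at 49.8 and 51.3 TPM in male BC wt and at 11.6, 13.5 and 0.0441 TPM in ΔE1, ΔE3 and ΔP4. It was at 65.0 and 65.1 TPM in female wt. In CB it was at 51.0 and 51.7 TPM in wt and at 2.07, 7.28 and 0.0364 TPM in ΔE2.5, ΔE2.7 and ΔP2.1. All 6 clones were below the wt libraries. Between the 2 wt libraries of a group, the members differed by about their counting noise (mean chi-square per member of 0.878 in male BC, 1.24 in female BC and 0.726 in male CB, where 1 is counting noise). Over all genes the same mean was 15.2 to 31.4, so the libraries are not copies of each other. Nothing in the labels shows separate cultures. In the comparison of the sexes and in the fits of single clones, p-values measure only the spread between wt libraries, which may be technical. Where KO clones were grouped, the spread between clones entered as well.

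All 12 libraries were those of ES cells with a low level of the members. *Pou5f1*, the core pluripotency factor, was at 2071 to 3788 TPM and had a percentile rank of 99.9 to 100 among all genes. The 10 members summed to between 21.1 TPM in a female library and 58.8 TPM in a CB wt library. The most abundant was *Dab2*, from 6.33 to 29.5 TPM with a median of 20.5 TPM. *Gata4*, the other member above 1 TPM in all 12 libraries, ranged from 2.16 to 7.47 TPM. *Foxa2* and *Sox7* passed 1 TPM in 10 libraries, *Gata6* in 8, *Foxq1* in 7, *Pdgfra* in 5, *Sox17* in 4 and *Hnf4a* in 2. *Cubn*, which encodes the endocytic receptor cubilin, stayed under 1 TPM in every library. It therefore entered only the alternative fits with no filter. *Foxa2* had the widest range, 99.5-fold between the lowest and the highest library, apart from *Hnf4a*, which was at 0 in ΔP2.1.

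**Figure D1:**
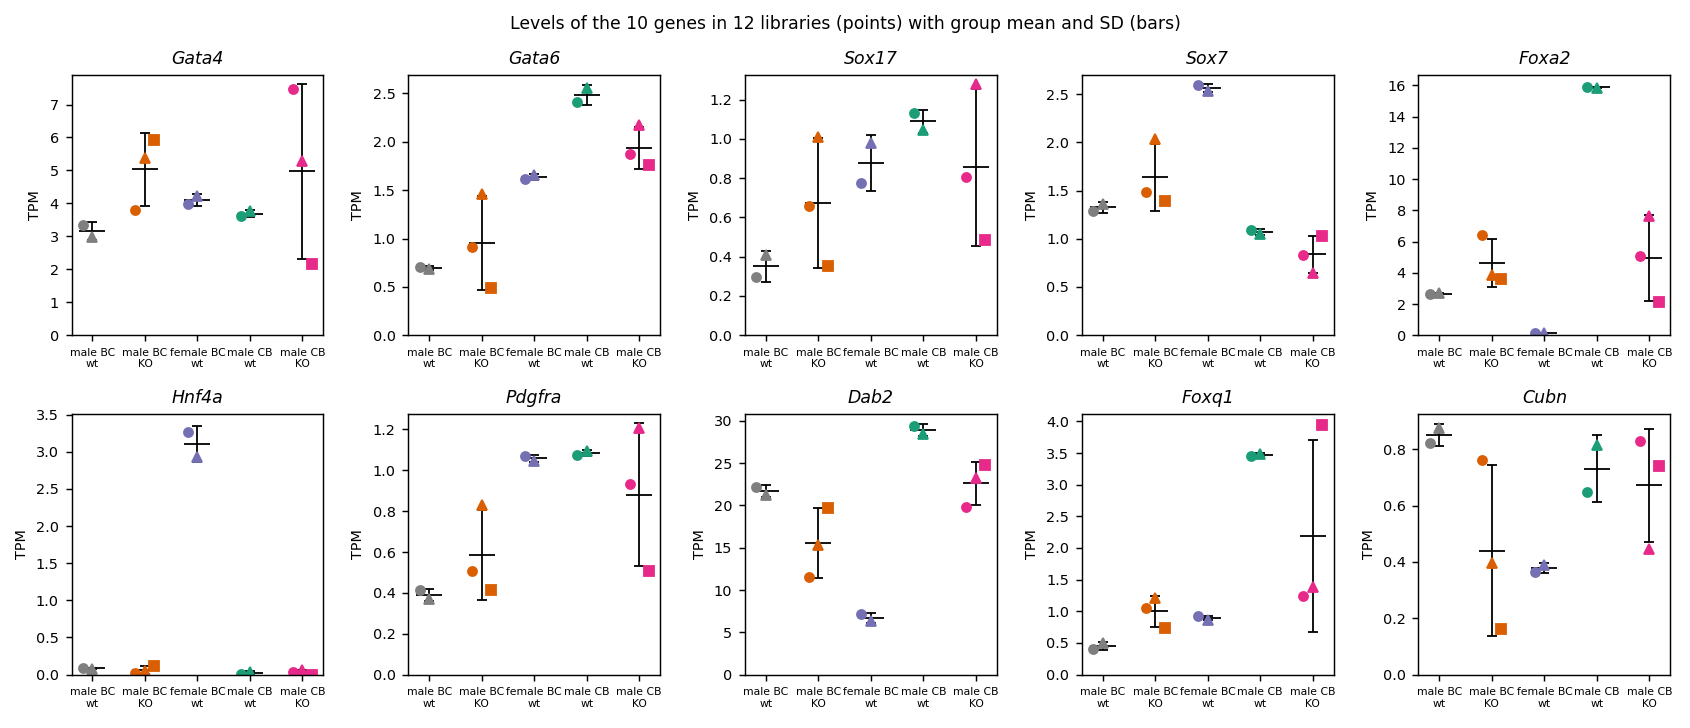
Level of each of the 10 genes in TPM (linear axis from 0, a scale per gene) in 12 libraries, in 5 groups. Points are libraries, in the order of wt 1 and wt 2 or of ΔE1, ΔE3, ΔP4 and ΔE2.5, ΔE2.7, ΔP2.1, and bars are the mean and SD (n = 2 or 3). *Foxa2* is at 15.9 TPM in both CB wt libraries and at 0.165 and 0.160 TPM in the female libraries, and *Hnf4a* is at 3.27 and 2.93 TPM in the female libraries and at most 0.12 TPM elsewhere.

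The first question was whether loss of *Kdm6a* changed these genes in the BC cross. Of the 7 members tested, 6 were higher in the KO clones and *Dab2* was lower, but none passed an adjusted p of 0.05 with a change of at least 1.5-fold (edgeR quasi-likelihood test). The call is rare in this comparison, with 0.029% of 13805 genes. At an unadjusted p under 0.05 there were 3 members, *Foxq1*, *Gata4* and *Dab2*, and 1525 genes in all. DESeq2 called none of the 7 members and 1.88% of all genes. *Kdm6a*, the deleted gene, was not called either (log2 fold change -2.60, SE 1.30, adjusted p = 0.509 by edgeR and 0.636 by DESeq2). The lack of a call for a member therefore does not show that it was unchanged. The median log2 fold change of the members was 0.62, beside 0.01 over all genes tested. The median was not tested. Of the libraries compared, *Foxq1*, *Gata6* and *Sox17* passed 1 TPM only in KO clones, and *Cubn*, *Hnf4a* and *Pdgfra* did not pass. The count of higher members and the median are therefore partly set by this filter.

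*Foxq1*, a forkhead factor enriched in endoderm, was at 0.403 and 0.5 TPM in BC wt and at 1.05, 1.21 and 0.737 TPM in ΔE1, ΔE3 and ΔP4. The 3 clones were all above both wt libraries, with a log2 fold change of 1.11 (SE 0.34, adjusted p = 0.356 by edgeR). *Gata4*, a zinc finger factor of endoderm and heart, was at 3.36 and 2.98 TPM in wt and at 3.79, 5.38 and 5.92 TPM in the clones, again without overlap (log2 fold change 0.62, SE 0.24, adjusted p = 0.42). *Dab2*, which encodes the clathrin adaptor disabled-2, was at 22.2 and 21.2 TPM in wt and at 11.6, 15.4 and 19.8 TPM in the clones, all below wt. Its log2 fold change was -0.53 (SE 0.20, adjusted p = 0.408).

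*Foxa2*, the pioneer factor of endoderm, was at 2.63 and 2.71 TPM in BC wt and at 6.43, 3.85 and 3.62 TPM in the clones. All 3 clones were above wt (log2 fold change 0.76, SE 0.33, adjusted p = 0.452). *Sox7* was at 1.29 and 1.36 TPM in wt against 1.49, 2.03 and 1.39 TPM in the clones, so that ΔP4 lay next to wt. *Sox17* was at 0.296 and 0.407 TPM in wt and at 0.658, 1.01 and 0.353 TPM in the clones, where ΔP4 fell between the wt libraries. *Gata6* was at 0.706 and 0.681 TPM in wt and at 0.917, 1.46 and 0.486 TPM in the clones, with ΔP4 below wt and the others above.

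*Pdgfra* stayed under 1 TPM in all BC male libraries. The comparison of KO with wt there included it only in the alternative fit with no filter. Its values were 0.412 and 0.368 TPM in wt and 0.506, 0.832 and 0.412 TPM in the clones. *Cubn* was at 0.823 and 0.877 TPM in wt and at 0.763, 0.395 and 0.163 TPM in the clones, from 314 down to 56 fragments, with every clone below wt. *Hnf4a* had 12 and 11 fragments in wt and 3, 6 and 16 fragments in the clones, too few for a statement on its level. Among the 8 members above 1 TPM in any male library, 6 had all 3 BC clones on one side of both wt libraries, and 31.8% of the 14298 genes of that kind did so. This count is in TPM. For *Pdgfra* and *Sox7*, ΔP4 was next to a wt library, and with TMM scaling it was at -0.01 and -0.02 on the log2 scale relative to wt.

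In the CB cross the same comparison gave mostly lower levels in KO clones. Of 8 members tested, 7 were lower and *Gata4* was higher, and none was called by edgeR, which called 0% of 13801 genes. A single member, *Foxa2*, had an unadjusted p under 0.05, as did 2832 genes. DESeq2 called *Foxa2* and 3.58% of genes. *Kdm6a* itself was again not called (log2 fold change -3.95, SE 1.25, adjusted p = 0.19 by edgeR and 0.153 by DESeq2). The median log2 fold change of the members was -0.28, beside 0.01 over all genes. With all 3 CB clones on one side of both wt libraries there were 4 members, *Foxa2*, *Dab2*, *Gata6* and *Sox7*, each lower in the clones in TPM, beside 46.2% of the 14298 genes. For *Sox7* the side of ΔP2.1 turned with the scaling (1.03 TPM against 1.05 TPM in the nearer wt library, and 0.01 on the log2 scale after TMM scaling).

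*Foxa2* was at 15.9 TPM in both CB wt libraries and at 5.07, 7.64 and 2.16 TPM in ΔE2.5, ΔE2.7 and ΔP2.1. The clones stood at 31.9%, 48.1% and 13.6% of the wt mean, and the log2 fold change was -1.60 (SE 0.49, adjusted p = 0.182 by edgeR and 0.0181 by DESeq2). *Dab2* was at 29.5 and 28.4 TPM in wt and at 19.8, 23.2 and 24.8 TPM in the clones, a log2 fold change of -0.28 (SE 0.11, adjusted p = 0.245). *Gata6* fell outside the wt range by little, with 2.42 and 2.56 TPM in wt and 1.88, 2.18 and 1.76 TPM in the clones (log2 fold change -0.28, SE 0.20, adjusted p = 0.441).

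*Sox7* was at 1.10 and 1.05 TPM in CB wt and at 0.836, 0.643 and 1.03 TPM in the clones. *Foxq1* split by clone, with 3.45 and 3.49 TPM in wt, 1.24 and 1.38 TPM in the exonic clones ΔE2.5 and ΔE2.7, and 3.94 TPM in the promoter clone ΔP2.1. With ΔP2.1 left out, edgeR called *Foxq1* (log2 fold change -1.32, adjusted p = 0.0211) and *Foxa2*, and the number of all genes called went from 0 to 927. *Gata4* also split, with 3.61 and 3.78 TPM in wt, 7.47 and 5.28 TPM in the exonic clones and 2.16 TPM in ΔP2.1.

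Other cell types' markers moved in the same clones. A list of 25 fibroblast genes, fixed for the feeder cells, had, of 21 tested genes, 16 called lower and 1 higher in ΔE2.5, 12 lower and 2 higher in ΔE2.7, and 2 lower and 4 higher in ΔP2.1, against the CB wt libraries. Of 10 tested primitive streak and definitive endoderm genes, 7 were called lower and 1 higher in ΔE2.5, 6 higher and none lower in ΔE2.7, and 8 lower and none higher in ΔP2.1. Over all genes 16.7%, 15.2% and 9.95% were called in these clones. Their part in the *Foxa2* and *Foxq1* values was not tested.

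*Sox17* was at 1.13 and 1.05 TPM in CB wt and at 0.805, 1.28 and 0.484 TPM in the clones. It lies on chromosome 1, which had 578 genes with a mean above 5 TPM in the male CB libraries. Their median change in log2(TPM + 1) against wt was 0.43 in ΔE2.5, 0.36 in ΔE2.7 and -0.14 in ΔP2.1. Over all genes above that mean it was -0.05 in ΔE2.5 and -0.08 in ΔE2.7. The part of that shift in the *Sox17* values was not tested. *Pdgfra* was at 1.07 and 1.10 TPM in wt and at 0.932, 1.2 and 0.506 TPM in the clones, highest in ΔE2.7 and lowest in ΔP2.1, the extremes of *Sox17* as well. *Hnf4a* had between 0 and 5 fragments in all CB libraries, and 0 fragments in ΔP2.1 allow up to 3. *Cubn* was at 0.646 and 0.815 TPM in wt and at 0.829, 0.446 and 0.739 TPM in the clones, which overlapped wt.

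The difference between crosses in the KO effect was tested as an interaction over the 10 male libraries. None of the 8 members was called by edgeR, with 0.0629% of 14298 genes called, and *Foxa2* and *Foxq1* had an unadjusted p under 0.05, as did 2395 genes. *Foxa2* stood above wt in all 3 BC clones and below wt in all 3 CB clones, with an interaction of -2.37 on the log2 scale (SE 0.63, adjusted p = 0.143). DESeq2 called it (adjusted p = 0.00814) along with 3.88% of genes. *Sox7* had the same arrangement in TPM, with an interaction of -0.56 (SE 0.40, adjusted p = 0.495), but not with TMM scaling, where ΔP4 was at -0.02 and ΔP2.1 at 0.01 on the log2 scale relative to wt. In TPM the arrangement in opposite directions was found in 9.22% of the 14298 genes. *Foxq1* had an interaction of -1.71 (SE 0.67, adjusted p = 0.243), which became -2.44 and was called by edgeR without ΔP2.1 (adjusted p = 0.0276).

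Only *Dab2* among the 8 members had all 6 clones on the same side of the wt libraries of their cross, and 5.28% of the 14298 genes did. In a fit over both crosses, added after the values were seen, *Dab2* had a log2 fold change of -0.41 (SE 0.13, adjusted p = 0.374), and edgeR called none of the 8 members and 0% of genes. DESeq2 called none of the members and 0.574% of genes there. In that fit 1 member, *Dab2*, and 1443 genes had an unadjusted p under 0.05 by edgeR.

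Because clones of a group differed, each clone was also set against the 2 wt libraries of its cross. This fit takes its spread from the 3 pairs of wt libraries, which differ by about counting noise for these genes, and assumes that a lone clone varies likewise. A call therefore says that a clone differed from wt by more than these libraries differed, not that deletion of *Kdm6a* changed the gene. In ΔE1, edgeR called 5 of 9 members, beside 10.8% of 14668 genes. *Foxa2* (log2 fold change 1.25, SE 0.11), *Foxq1* and *Sox17* were higher, *Dab2* was lower (-0.93, SE 0.08), and *Hnf4a* was called lower on 3 fragments. In ΔE3, 6 of 9 members were called, all higher, beside 19.5% of genes. They were *Sox17* (1.5, SE 0.26), *Foxq1*, *Pdgfra* (1.08, SE 0.16), *Gata6* (1.06, SE 0.17), *Gata4* and *Sox7*. In the promoter clone ΔP4, 3 members were called beside 13.6% of genes, *Gata4* (0.81, SE 0.11) and *Foxq1* higher and *Gata6* lower (-0.60, SE 0.21). Markers of other cell types moved in these clones too, and their part in the calls was not tested. Of 21 fibroblast genes, 6 were called lower and 1 higher in ΔE1, 11 and 1 in ΔE3, and 9 and 2 in ΔP4. Of 10 streak and definitive endoderm genes 5, 5 and 3 were called lower and none higher. Of 9 trophoblast genes 5 were called higher and none lower in ΔE1, 1 higher and 2 lower in ΔE3, and 2 higher and 2 lower in ΔP4.

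In CB, the clone ΔE2.5 had 3 members called beside 16.7% of genes, *Gata4* higher (1.08, SE 0.12) and *Foxa2* and *Foxq1* lower. ΔE2.7 had 4 called beside 15.2% of genes, *Gata4* higher and *Foxa2*, *Foxq1* and *Sox7* lower. The promoter clone ΔP2.1 had 4 members called beside 9.95% of genes, all of them lower. *Foxa2* fell most (-2.82, SE 0.14), followed by *Sox17* (-1.11, SE 0.30), *Pdgfra* (-1.03, SE 0.18) and *Gata4* (-0.71, SE 0.14). *Gata4* was thus called higher in 4 clones and lower in ΔP2.1, and *Foxq1* higher in the 3 BC clones and lower in the exonic CB clones. DESeq2 called fewer members in 5 of the 6 clones. It did not call *Sox17* and *Hnf4a* in ΔE1, *Sox7* in ΔE3, *Foxq1* (adjusted p = 0.197) and *Gata6* in ΔP4, *Gata4* (adjusted p = 0.0501) and *Sox7* in ΔE2.7, or *Sox17* in ΔP2.1. It called 7.07% of all genes in ΔE1, 15% in ΔE3, 8.82% in ΔP4, 13.2% in ΔE2.5, 11.7% in ΔE2.7 and 6.61% in ΔP2.1.

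**Figure D2:**
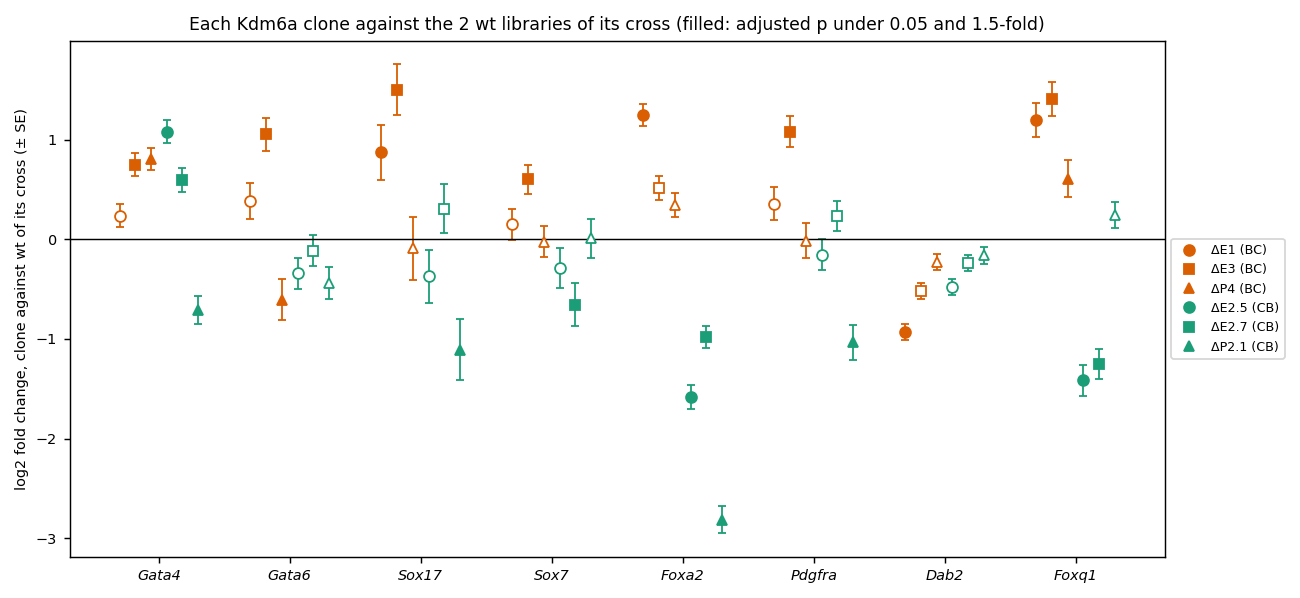
Log2 fold change of 8 genes in each *Kdm6a* clone against the 2 wt libraries of its cross (BC orange, CB green), with the SE of the edgeR fit. Filled symbols passed an adjusted p of 0.05 and 1.5-fold. *Foxa2* spans -2.82 to 1.25 and is above 0 in the 3 BC clones and below 0 in the 3 CB clones, while *Dab2* is below 0 in all 6.

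The clones of common origin, ΔE1 and ΔE3, were compared with each other. Leaving out *Hnf4a* for its few fragments, the higher of the pair was 1.15 to 1.93 times the lower over 9 members, with a median of 1.54, and 5 members differed by at least 1.5-fold. ΔE3 was higher for 7 members and ΔE1 for *Foxa2* (6.43 against 3.85 TPM) and *Cubn* (0.763 against 0.395 TPM). The exonic CB clones ΔE2.5 and ΔE2.7 differed by a median of 1.30 times, up to 1.86 times for *Cubn*.

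The crosses were compared over the 10 male libraries, with the KO as a covariate. Of 8 members tested, 3 were called higher (*Foxq1*, *Gata6* and *Pdgfra*) and 1 lower (*Sox7*), beside 25.9% of 14298 genes called by edgeR. DESeq2 called the same 4 and *Foxa2*, beside 26.1% of genes. The log2 fold change was positive for 7 and negative for *Sox7*, but for *Gata4* it was well within its SE. The median of the members was 0.87, beside -0.03 over all genes. *Pdgfra* passed 1 TPM only in CB libraries, so that its entry rests on the cross where it was higher.

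*Foxq1* was 3.49-fold higher in CB (log2 fold change 1.80, SE 0.42, adjusted p = 0.00525). The exonic CB clones lay next to the BC clones ΔE1 and ΔE3. *Gata6*, the earliest factor of the lineage, was 2.5-fold higher (1.32, SE 0.29, adjusted p = 0.00386), and every CB library from 1.76 to 2.56 TPM was above every male BC library, the highest of which had 1.46 TPM. *Pdgfra* was 1.89-fold higher (0.92, SE 0.29, adjusted p = 0.0255), with overlap, since ΔP2.1 at 0.506 TPM lay below ΔE3 at 0.832 TPM. Leaving out any one of 6 libraries (either wt library of BC or CB, ΔP4 or ΔE2.7) ended the *Pdgfra* call, with log2 fold changes of 0.81 to 0.87. *Sox7* was 1.65-fold lower in CB (-0.72, SE 0.21, adjusted p = 0.0173), with every CB library below every BC library. *Dab2* passed the adjusted p but not the fold (1.39-fold higher, adjusted p = 0.0115). *Foxa2* (2.07-fold, adjusted p = 0.1) and *Sox17* (1.76-fold, adjusted p = 0.101) did not pass, and *Gata4* had a log2 fold change of 0.06 (SE 0.27). *Foxa2* was called by edgeR without ΔE1 (1.34) or without ΔP2.1 (1.42), and *Sox17* without ΔE3 (1.12) or without ΔP2.1 (1.04). Between the wt lines alone, edgeR called *Foxa2* and *Sox17* as well, and *Sox7* was not called (-0.38).

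Other genes moved with the cross as well, and their part in these differences was not tested. The fibroblast list summed to 2511 and 2580 TPM in CB wt and to 703, 1268 and 2733 TPM in ΔE2.5, ΔE2.7 and ΔP2.1, against 205 and 208 TPM in BC wt, 71.8 to 264 TPM in BC KO and 168 to 169 TPM in the female libraries. Most of the sum came from the smooth muscle genes *Tagln*, at 1662 and 1714 TPM, and *Acta2*, at 683 and 692 TPM in CB wt. Of 21 tested genes of the list, 14 were higher in CB and 1 lower, beside 25.9% of all genes called. Next came *Col1a1* at 52.2 and 56.3 TPM, *Col5a1* at 29.7 and 30.2 TPM, *Thy1* at 13 and 14.4 TPM and *Twist1* at 11.6 and 12.1 TPM. Of the others, *Col3a1* was at 7.25 and 7.92 TPM, *Dcn* at 4.29 and 4.78 TPM, *Col1a2* at 2.76 and 2.83 TPM, *Pdgfrb* at 1.45 and 1.53 TPM, *Lum* at 0.109 and 0.195 TPM and *Fap* at 0 TPM in CB wt. Fibroblasts also express *Pdgfra*, and their part in its level was not tested.

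The list of 11 primitive streak and definitive endoderm genes also differed. Its sum was 295 and 296 TPM in CB wt, 84.3, 433 and 90.8 TPM in ΔE2.5, ΔE2.7 and ΔP2.1, 37.8 and 38.8 TPM in BC wt, 27.2, 23.5 and 30 TPM in ΔE1, ΔE3 and ΔP4, and 23.4 to 23.6 TPM in the female libraries. Of its 10 tested genes 7 were higher in CB and none lower by edgeR, and 4 by DESeq2. Over all genes 25.9% were called by edgeR and 26.1% by DESeq2. *Fgf8* had a log2 fold change of 4.35, *T* (brachyury) of 4.09, *Wnt3* of 3.75 and *Lhx1* of 3.54. *Foxa2*, *Gata6* and *Sox17* are also genes of definitive endoderm. *Foxa2* was at 15.9 TPM in CB wt and at 5.07, 7.64 and 2.16 TPM in ΔE2.5, ΔE2.7 and ΔP2.1. Its relation to the list was not tested. The trophoblast list had 3 of 9 tested genes higher in CB, *Gata3*, *Cdx2* and *Tfap2a*, and its placental markers *Prl3d1* and *Tpbpa* were at 0 in every wt library except 0.0181 TPM of *Tpbpa* in a female library.

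**Figure D3:**
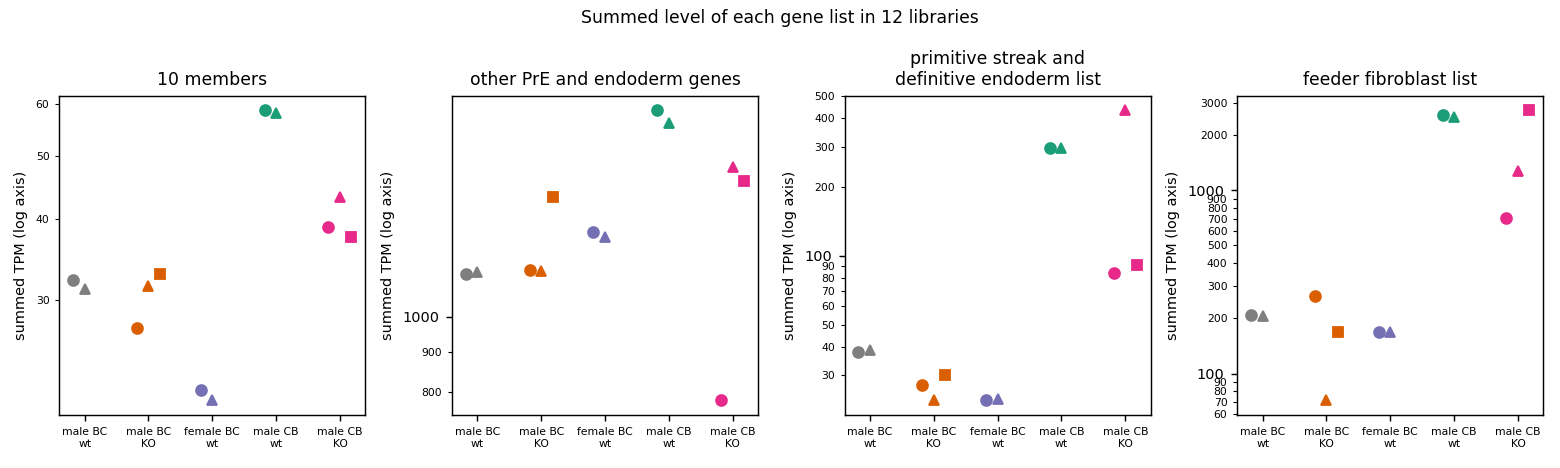
Summed TPM (log axis, a scale per panel) of the 10 genes, of 39 other primitive endoderm and visceral endoderm genes, of the streak and definitive endoderm list and of the fibroblast list, per library. The CB wt libraries are highest for the 10 genes at 58.1 and 58.8 TPM, and the fibroblast list is above 700 TPM in every CB library and between 71.8 and 264 TPM in every BC library.

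Sex was compared between the female and male wt lines of the BC cross. The members went in both directions and by large folds. Of 7 tested, 4 were higher in the female line (*Hnf4a*, *Pdgfra*, *Gata6* and *Sox7*) and 2 lower (*Foxa2* and *Dab2*). They stand beside 44.5% of 14049 genes called by edgeR, so that a change was common among all genes. *Hnf4a*, *Pdgfra* and *Gata6* passed 1 TPM only in the female libraries, and *Foxa2* only in the male ones. Both counts are therefore partly set by this filter. *Hnf4a*, a nuclear receptor of visceral endoderm and liver, was at 3.27 and 2.93 TPM (487 and 338 fragments) in the female libraries against 0.0912 and 0.0794 TPM in male wt. This was 34.7-fold (log2 fold change 5.12, SE 0.20, adjusted p = 4.1e-09). *Foxa2* went the other way, with 0.165 and 0.160 TPM in the female libraries against 2.63 and 2.71 TPM, a log2 fold change of -4.08 (SE 0.24, adjusted p = 6.84e-08). *Dab2* was at 7.16 and 6.33 TPM in the female libraries, 3.35-fold lower than in male wt (-1.74, SE 0.08, adjusted p = 1.36e-08).

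*Pdgfra* was at 1.07 and 1.05 TPM in the female libraries (log2 fold change 1.38, SE 0.15, adjusted p = 9.6e-06). *Gata6* was at 1.61 and 1.66 TPM (1.18, SE 0.17, adjusted p = 6.53e-05). *Sox7* was at 2.59 and 2.53 TPM, its highest levels in the series (0.89, SE 0.13, adjusted p = 0.000101). *Gata4* was at 3.97 and 4.22 TPM and passed the adjusted p but not the fold (0.31, SE 0.11, adjusted p = 0.0237). *Sox17* at 0.777 and 0.979 TPM, *Foxq1* at 0.919 and 0.866 TPM and *Cubn* at 0.364 and 0.389 TPM stayed under 1 TPM in this comparison. They entered only the alternative fit with no filter. *Sox17* and *Foxq1* were above both male wt libraries and *Cubn* below them.

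**Figure D4:**
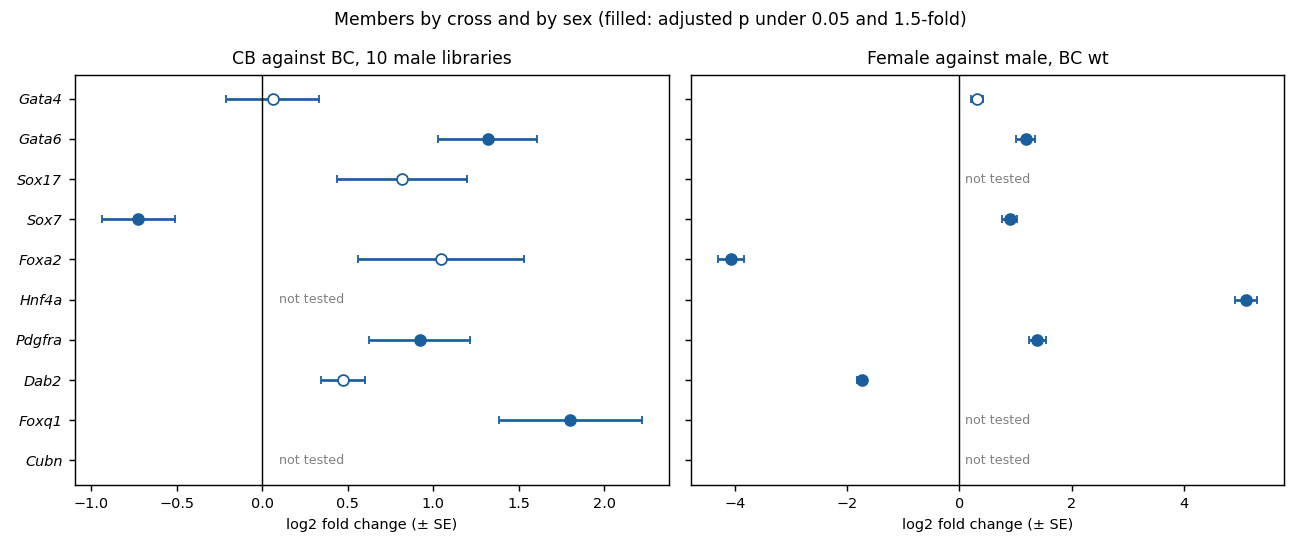
Log2 fold change (± SE, edgeR) of the 10 genes between CB and BC in 10 male libraries (left) and between female and male BC wt (right). Filled symbols passed an adjusted p of 0.05 and 1.5-fold. *Foxq1* is highest at 1.80 on the left, and *Hnf4a* at 5.12 and *Foxa2* at -4.08 are the extremes on the right.

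By the order of the group means, *Sox17* and *Pdgfra* had the same arrangement of the 5 groups and the other members each had another. CB wt was highest for *Foxa2* (15.9 ± 0.0301 TPM, SD, n = 2), *Dab2* (28.9 ± 0.739), *Gata6* (2.49 ± 0.103), *Foxq1* (3.46 ± 0.0283), *Sox17* (1.09 ± 0.0588) and *Pdgfra* (1.08 ± 0.0156). The female line was highest for *Sox7* (2.56 ± 0.0429 TPM) and *Hnf4a* (3.10 ± 0.242 TPM). BC KO was highest for *Gata4* (5.03 ± 1.11 TPM, SD, n = 3) but overlapped CB KO (4.97 ± 2.67 TPM), and BC wt was highest for *Cubn* (0.850 ± 0.0380 TPM). The range of *Foxq1* in CB wt overlapped CB KO, where ΔP2.1 was higher, and *Pdgfra* in CB wt was next to the female line (1.06 ± 0.0186 TPM). *Foxa2* in CB KO (4.96 ± 2.74 TPM) overlapped BC KO (4.63 ± 1.56 TPM), so that the clones of the crosses lay closer than the wt lines did.

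*Gata6*, *Sox17* and *Pdgfra* followed each other over the 12 libraries. The Pearson r of log2(TPM + 1) was 0.93 for *Sox17* and *Pdgfra*, 0.87 for *Gata6* and *Pdgfra* and 0.84 for *Gata6* and *Sox17*, and 0.95, 0.80 and 0.86 in the 10 male libraries after the mean of each cross was taken off. They are the pairs of members with the highest r over the 12 libraries, and their rank among all genes was not taken. *Sox7* and *Foxq1* had -0.40 over the 12 libraries and 0.81 in the males. All these values describe libraries that share lines and depth, at levels near 1 TPM. *Gata4* and *Sox7* are neighbors on chromosome 14, from 63198922 to 63271692 on the minus strand and from 63943673 to 63950732 on the plus strand, with 672 kb between them, and their r was -0.07. *Dab2* and *Sox7* had an r of -0.85 over all 12 libraries and -0.09 within the crosses of the males. *Foxa2* and *Hnf4a* had -0.78 over all 12 libraries and -0.07 within the crosses of the males. *Hnf4a* had only 0 to 16 fragments in male libraries, too few for the second value to be read. It passed 1 TPM in the female libraries alone, where *Foxa2* was lowest.

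Over the same 12 libraries the genes most like *Dab2* among all genes above 1 TPM were *Sulf1* (r = 0.97), *Zbtb1* and *Fzd2* (both 0.96). Those most like *Foxa2* were *Zfp46* (0.96), *Slc38a6* (0.96) and *Mtmr11* (0.96), and *Dab2* came at rank 871 with 0.77. *Foxq1* was followed most closely by *Lynx1*, *Ccng1* and *Cd151* (all 0.98), and *Gata4* less closely by *Plcd4* (0.87), *Abcb6* (0.86) and *Gstt2* (0.84). No other member was among these.

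The other genes of the lineage were followed with a list of 39 primitive and visceral endoderm genes. In the KO comparisons none of the 23 tested in BC and none of the 27 tested in CB was called by edgeR (1 and 5 at an unadjusted p under 0.05). DESeq2 called none in BC, and in CB it called *Spink1* higher (1.70) and *Slc39a8* (-1.32) and *Serpinh1* (-0.96) lower. The most abundant were *Rhox5*, a homeobox gene of extraembryonic tissue at 69.3 to 932 TPM over all libraries, and *Sparc*, a matrix gene at 120 to 598 TPM. Among the secreted proteins of visceral endoderm in the list, *Ttr* was at 0 in every library and *Afp* and *Apoa4* were at no more than 0.0515 TPM. *Apoa2* was at 31.8 to 242 TPM, *Rbp4* at 2.00 to 7.06 TPM, *Apoc2* at 0.00811 to 3.07 TPM and *Apoa1* at 0.160 to 1.57 TPM. Between crosses 15 of 29 tested genes were higher in CB and 2 lower, with a median log2 fold change of 0.89. The largest were *Cer1*, a secreted inhibitor of anterior visceral endoderm (4.83), the activin antagonist *Fst* (3.42), *Tmprss2* (3.24) and *Krt19* (2.91), while *Apoa2* (-1.46) and *Apoc2* (-2.48), named after their values were seen, were lower. In the female line 9 of 25 were higher and 9 lower. The shares of all genes called were 25.9% between crosses and 44.5% between the sexes. *S100g* (2.36) and *Apoa1* (2.23) were higher and *Cfc1* (-2.20) and *Lrp2* (-2.10) lower.

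In the KO comparisons edgeR called none of the streak and definitive endoderm, trophoblast and fibroblast genes either. DESeq2 called 2 streak genes (*T* and *Eomes*) and 2 fibroblast genes (*Col5a2* and *Thy1*) lower in BC KO and none of these lists in CB KO. At an unadjusted p under 0.05 there were 3, 2 and 3 of them in BC and 0, 0 and 4 in CB. The most abundant were *T* at 3.40 to 196 TPM and *Fgf8* at 1.35 to 102 TPM, *Tead4* at 15.2 to 44.4 TPM and *Ascl2* at 9.29 to 24.5 TPM, and *Tagln* and *Acta2*. In the female line 1 of 9 tested streak and definitive endoderm genes was higher and 5 lower. There 4 of 6 trophoblast genes were higher and 1 lower (*Cdx2*, -3.35), and 6 of 18 fibroblast genes were higher and 9 lower (*Col3a1*, -4.56). Of all genes, 44.5% were called in that comparison.

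*Lrp2* (megalin), *Cubn* and *Amn* encode the receptor complex that DAB2 links to endocytosis. *Lrp2* was at 18 and 15.7 TPM in BC wt, 4.07 and 4.08 TPM in the female line and 51.5 and 49.3 TPM in CB wt, the same order as for *Dab2*. *Amn*, named after its values were seen, had another order, with 3.15 and 4.09 TPM in BC wt, 9.71 and 14.1 TPM in the female line and 5.09 and 4.40 TPM in CB wt.

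The signaling genes that act before the lineage decision were described with 26 genes of the FGF and MAPK pathway, all of which were tested. In KO against wt edgeR called none in either cross (2 in BC and 4 in CB at an unadjusted p under 0.05), and the median log2 fold changes were -0.02 in BC and 0.03 in CB. DESeq2 called 1 of them higher in BC KO, *Fgfr4* (log2 fold change 0.99), and none in CB KO. *Fgf4*, the ligand, named after its values were seen, was at 197 and 213 TPM in BC wt, 234 to 283 TPM in BC KO, 295 and 302 TPM in the female line, 133 and 135 TPM in CB wt and 138 to 145 TPM in CB KO. Between crosses 1 gene was higher in CB, *Fgf5* (2.77), and 5 were lower, among them *Fgfr4* (-1.73), *Spry4* (-1.17), *Etv4* (-1.01) and *Fgf4* (-0.81). In the female line 2 were higher and 9 lower, with *Fgf5* (-5.11), *Fgfr2* (-2.31), *Dusp6* (-2.07) and *Spry2* (-1.55) changed most. Over all genes 25.9% were called between crosses and 44.5% between the sexes, so that calls were common. *Dusp6*, *Spry2*, *Spry4*, *Etv4* and *Spred1* are targets of the MAPK cascade.

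The epiblast side was described with 15 pluripotency genes, among them *Nanog*. None was called in the KO comparisons by edgeR (9 in BC and 6 in CB at an unadjusted p under 0.05), with medians of 0.62 in BC, where 11 of 15 were positive, and 0.28 in CB, where 13 of 15 were. DESeq2 called 6 of them higher in BC KO, among them *Tbx3* (1.28), *Klf4* (0.91), *Esrrb* and *Nanog* (both 0.80). It called 2 higher in CB KO, *Klf2* (0.78) and *Sox2* (0.68), beside 1.88% of all genes in BC and 3.58% in CB. The most abundant were *Pou5f1* and *Sox2*, the latter at 1128 and 967 TPM in BC wt and 372 and 379 TPM in CB wt. *Nanog*, named after its values were seen, was at 201 and 228 TPM in BC wt. In the BC clones it was at 305, 479 and 372 TPM. In CB wt it was at 320 to 323 TPM, and the CB clones, at 195 to 449 TPM, lay on both sides of wt. In CB 9 of the 15 genes were called lower than in BC and none was called higher. Among the lower were *Klf2* (-1.30), *Sox2* (-1.22) and *Esrrb* (-1.09). In the female line 9 were higher and 2 lower, with *Tbx3* (4.38), *Klf4* (3.35), *Prdm14* (2.24) and *Nanog* (2.02) changed most. These counts stand beside 25.9% of all genes called between crosses and 44.5% between the sexes. The sum of the list, of which *Pou5f1* was the largest part, was 10339 and 10422 TPM in the female libraries. It was 6256 and 6544 TPM in male BC wt and 4471 and 4545 TPM in CB wt. The sums of the 10 members, of which *Dab2* was the largest part, had the reverse order. *Nanog* did not follow the order of its list, since it was higher in CB wt than in BC wt. Single members did not all follow the order of their sums. *Gata4*, *Gata6*, *Sox17*, *Sox7*, *Hnf4a*, *Pdgfra* and *Foxq1* were higher in the female line than in male BC wt, and *Dab2*, *Foxa2* and *Cubn* lower.

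The alleles were compared by the fragments that hold a SNP. The BL6 share over all genes was 55.9% in male BC wt, 45.4% to 45.6% in the female line and 53.0% to 53.2% in CB wt. Shares are given for libraries with at least 20 such fragments, with 95% Wilson intervals that cover counting error only. *Dab2* was expressed mainly from the *cast* allele in all 12 libraries, whether *cast* was the father (BC) or the mother (CB). The BL6 share of *Dab2* was 13.5% and 15.3% in BC wt (14.3% pooled, interval 12.5% to 16.4%, 1276 SNP fragments), 9.40% and 9.68% in the female line, and 22.5% and 24.1% in CB wt (23.3% pooled, interval 20.8% to 26.0%). In the BC clones it was 17.7% to 18.2%, above both wt libraries, and in the CB clones 16.1% to 19.7%, below both. The interval of each BC clone overlapped that of the nearer wt library (12.7% to 18.4%). That of each CB clone also overlapped the interval of its nearer wt library (19.0% to 26.4%). A change of the share with KO was not tested.

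*Sox7* leaned to the BL6 allele. Its BL6 share was 86.0% in both BC wt libraries (50 and 43 SNP fragments) and 81.2% and 88.2% in the female line. In the BC clones it was 65.1% in ΔE1, 77.6% in ΔE3 and 85.7% in ΔP4. The interval of ΔE1, 52.8% to 75.7%, includes the 54.8% of all genes in that library. CB wt had 69.6% and 51.9%, with Wilson intervals of 49.1% to 84.4% and 34.0% to 69.3% that include the share over all genes, and the CB clones pooled had 78.3% (interval 64.4% to 87.7%, 46 SNP fragments). *Gata4* was biallelic, with 51.0% and 55.9% in BC wt, 43.2% to 57.2% in the BC clones, 51.6% and 57.9% in the female line, 66.1% and 52.1% in CB wt and 51.2% to 54.3% in the CB clones. *Cubn* ranged from 37.9% to 68.0% over the 10 libraries with enough fragments.

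*Foxa2* in CB wt, where it was most abundant, had a BL6 share of 29.3% and 31.0%, pooled 30.1% (interval 21.3% to 40.7%, 83 SNP fragments). In the BC clones it was 43.8%, 33.3% and 40.0%. Each CB clone had fewer than 20 SNP fragments, and pooled they had 50% (interval 34.1% to 65.9%, 34 SNP fragments), which overlaps the interval of CB wt. *Hnf4a* in the female line was at 65.7% and 71.7% (pooled 68.3%, interval 62.2% to 73.8%, 246 SNP fragments), above the 45.4% to 45.6% of all genes. *Gata6* had few SNP fragments, and its pooled BL6 share was 15.6% (interval 7.75% to 28.8%) in CB wt, 18.4% (9.22% to 33.4%) in the female line and 59.1% (38.7% to 76.7%) in male BC wt. The CB wt libraries differed in this, since the 16 SNP fragments of one held no BL6 fragment and the other had 24.1% of 29. *Pdgfra* was between 40.0% and 66.7%, and *Foxq1* between 37.0% and 68.2%. *Sox17* had at most 7 SNP fragments in a library, so that its alleles could not be resolved.

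**Figure D5:**
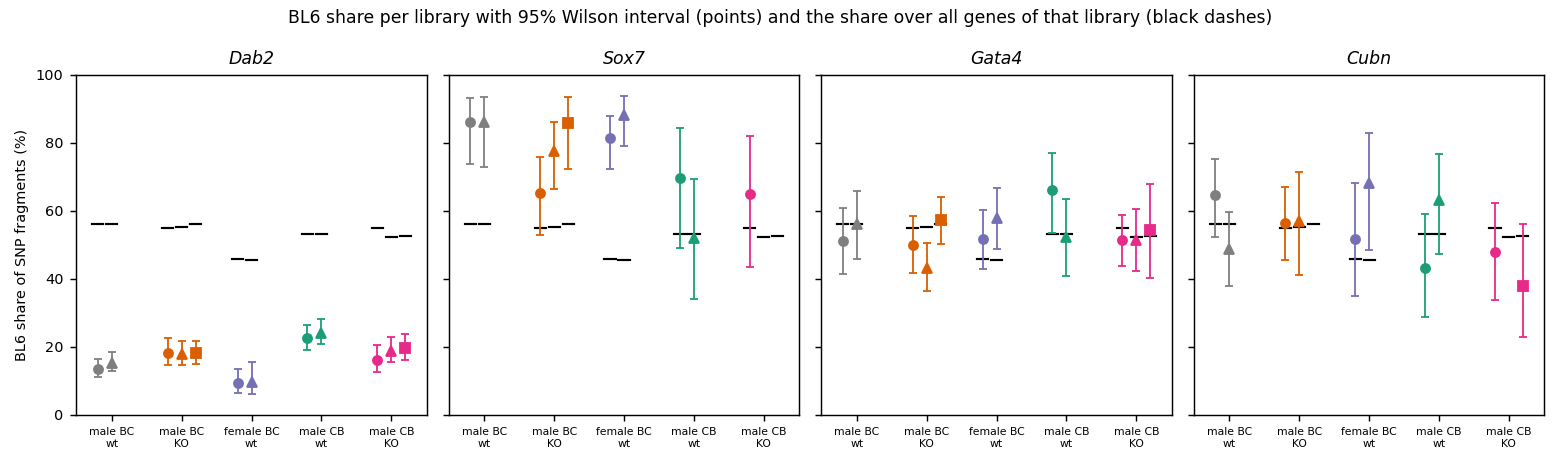
BL6 share (%) of the SNP fragments of *Dab2*, *Sox7*, *Gata4* and *Cubn* per library with at least 20 SNP fragments (points in the order of the plot of levels, bars the 95% Wilson interval), beside the share over all genes of the same library (black dashes). *Dab2* lies between 9.40% and 24.1% in all 12 libraries, and *Sox7* lies above the dashes in all 7 BC libraries.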

How the data were processed

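RNA was measured in 12 libraries by single-end 75-base RNA-seq. The authors mapped reads with TopHat and Bowtie2 2.2.5 (submitters' processing notes) to mm10 and to a pseudo-*cast* genome, kept reads of MAPQ of at least 30, and deposited estimated counts per gene, unnormalized and per library. The gene annotation and counter are not given in the sources used here. The deposited tables hold counts for the BL6 genome, the *cast* genome, either genome (diploid) and for fragments with BL6 or *cast* SNPs.

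Estimated counts were rounded. TPM used the longest RefSeq-matched GENCODE transcript for the 23310 genes matched by symbol and the median length of 2283 bases for the other 1036. Genes above 1 TPM in at least 1 library of a fit entered the edgeR (version 4.0.16, R 4.3.3) quasi-likelihood test, scaled by TMM (Benjamini-Hochberg adjustment over all tested genes, call at adjusted p under 0.05 and at least 1.5-fold, SE = log2 fold change divided by the root of F). *Sh3kbp1*, *Map3k15* and *Pdha1* were left out where BC clones entered. DESeq2 1.42.0, the study's method, was an alternative. Each clone was compared with wt in a fit of all 12 libraries. A fit of KO against wt over both crosses was added after the values were seen. Other alternatives were the scaling, the filter, gene lengths, the BL6 genome alone, the libraries that share a variance and leaving out each library. The tests were tested on simulated data. Allelic shares are of SNP fragments, with 95% Wilson intervals where a library had at least 20. Replicate numbers in the labels only name libraries, and no pairing was used.

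The members, gene lists and tests were chosen with earlier results of these data known. All 10 members are described, other lists by their called genes (up to 4 by size, or the 2 most abundant where fewer than 2 were called), and the 3 genes of highest r are given for the 4 most abundant members that were tested. Of the lists, *Spink3* was not in the tables. The levels of the most abundant signaling genes are not reported here. Tables were built in Python (3.11.15) with numpy (2.4.6), scipy (1.17.1) and pandas (2.3.3).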

Additional observations from a re-analysis of the deposited data

Results flagged for a closer look

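*Foxa2* and *Sox7* had all 3 BC clones above and all 3 CB clones below the wt libraries of their cross in TPM. For *Sox7* this did not hold with TMM scaling, where ΔP4 was at -0.02 and ΔP2.1 at 0.01 on the log2 scale relative to wt. The difference of the KO effect, CB minus BC, was -2.37 on the log2 scale for *Foxa2* (adjusted p = 0.143 by edgeR, 0.00814 by DESeq2) and -0.56 for *Sox7* (adjusted p = 0.495 by edgeR). It was called for *Foxa2* by DESeq2 alone. No group holds 4 or more libraries, so that single libraries were not tested as outliers.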

How the results depend on the processing

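Of 884 values of the members under alternatives, 821 kept their direction and their side of the threshold, 32 lost and 18 gained a call, and 13 changed sign. All 7 members tested between the sexes kept theirs in each alternative that tested them, and so did the 7 in BC KO. With DESeq2 the genes called were 260 (BC KO), 494 (CB KO), 555 (interaction), 82 (both crosses), 1037 (ΔE1), 1293 (ΔP4) and 969 (ΔP2.1), against 4, 0, 9, 0, 1586, 1993 and 1460, and the members called were 1 in CB KO, 1 in the interaction, 3 in ΔE1, 5 in ΔE3, 1 in ΔP4, 2 in ΔE2.7 and 3 in ΔP2.1. With the variance from all 12 samples, 54 genes were called in BC KO, 54 in CB KO and 113 in the interaction. The exonic clones alone gave 927 genes and 2 members in CB KO and 61 genes over both crosses. The interaction had 14 genes with no filter and 23 with ΔE1 and ΔE3 averaged. With no filter, members under 1 TPM were tested as well. Over all alternatives, 1 to 9 members were called between the sexes, where 7 had passed the filter. A minimum of 5 TPM, which tests fewer genes, gave 0 members between crosses, 1 between the sexes, 2 in ΔE1, 1 in ΔE3, 1 in ΔP4, 2 in ΔE2.7 and 2 in ΔP2.1, and 1034 genes in ΔE1 and 1249 in ΔP4.

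Without 1 library, 1 to 4 genes were called in BC KO (1 without ΔE1), 0 to 927 genes and 0 to 2 members in CB KO (highest without ΔP2.1), 3 to 6 members between crosses, 3 to 306 genes and 0 to 1 members in the interaction (highest without ΔP2.1, 88 without ΔP4), 3 to 4 members in ΔE1, 1 to 2 in ΔP4, 2 to 3 in ΔE2.7 and 0 to 22 genes over both crosses (highest without ΔP4). The sign changed for values that were not called. In CB KO these were *Sox17* (-0.688 to 0.018) and *Pdgfra* (-0.524 to 0.062), both highest with the exonic clones alone. *Gata4* ranged from -0.146 to 0.266 between crosses and from -0.526 to 0.234 in the interaction. In ΔP4, *Pdgfra* was 0.001 with the BL6 genome alone and, without a wt library, -0.084 to 0.039, *Sox17* -0.327 to 0.169 and *Sox7* -0.096 to 0.028. *Hnf4a* in ΔE2.5 was -0.022 to 1.490 and *Sox7* in ΔP2.1 -0.017 to 0.037. Apart from the fewer genes or libraries tested, the cause was not tested.

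The replicate numbers of the labels did not pair the libraries (correlations of deviations 0.098, 0.237 and 0.018). With a replicate block 6 members were called between the sexes, as without it. Between the wt lines of the crosses 4825 genes and 5 members were called with the block, and 5 members without it. No paired analysis was possible for the KO comparisons because the clones are different clones. Depth limits *Hnf4a* in males and the allelic shares of *Sox17*, *Gata6* and *Foxa2*. *Cubn*, with 56 to 314 fragments per library, was held back by the filter at 1 TPM.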
